A study of Mus musculus with 2 samples.

Results

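The genes described here build the contacts, the polarity and the keratin skeleton of an epithelium, and the data are circular RNAs (circRNAs) made from them. A circRNA arises when the end of an exon is spliced back onto the start of the same or an earlier exon, and reads across that back-splice junction identify it. The 31 genes were taken by exact symbol from the host gene column of both deposited lists. Of these, 28 had an entry, and together they gave 168 of the 31496 distinct circRNAs listed. Pard6b, Cxadr and F11r had no entry in either list. Of the 168 circRNAs, 124 had at least 1 junction read.

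The cells came from intestine of mice of the strain Lgr5GFP-CreERT2 at an age of 2 months. They were sorted by flow cytometry into cells labelled Lgr5+ ISC, for intestinal stem cell, and cells labelled Lgr5- non-ISC. Both fractions carry the same reporter allele, and no other agent or treatment is named for either. The sources used here do not give the stretch of intestine or how many animals were pooled. Each fraction is 1 library, so fraction and library cannot be told apart, differences lack a replicate check and p-values are left out.

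Junction reads numbered 156582 in the library labelled ISC and 76331 in that labelled non-ISC. Lgr5 itself had 0 reads against 7, in that order, which goes against the labels, so each direction below is one between the libraries as labelled. Pairs of values below keep this order. The 21 T lymphocyte markers had 6722 against 124 reads, and the 18 enterocyte markers 5 against 2990. Satb1 alone gave 4292 of the 6722 reads, and Btnl1 alone 2421 of the 2990. These lists were chosen with earlier results of these data known. A ratio divides the share of junction reads labelled ISC by the share labelled non-ISC, with its exact conditional 95% interval. These intervals cover counting error only. In sorted bulk cells, fewer cells of a type and less RNA per cell cannot be told apart.

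Neighbouring epithelial cells are held together by a belt of structures below their apical surface. Tight junctions (occludin, ZO-1, cingulin) seal the gap between cells, adherens junctions (E-cadherin and the catenins) couple the actin cytoskeletons, and desmosomes (desmogleins, desmocollins, plakophilins, desmoplakin) anchor the keratin filaments. The PAR and Crumbs polarity complexes place this belt and separate the apical from the basolateral membrane. In the intestine this belt forms the barrier of the villus, and Krt8, Krt18, Krt19 and Krt20 are the main keratins of its cells.

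The sequences across the back-splice are shown for the leading circRNA of 8 of the 10 members with most reads, since these are what a junction read spans. Ctnna1 and Ocln are named only. Each line gives the last 20 nt of the final exon in lower case and then, in capitals, the first 20 nt of the first exon, so that the change of case marks the junction. The sequences were read from GENCODE M21 transcripts on GRCm38, in the sense of the gene.
Inadl, exons 15 to 17, chr4:98456130-98469604, plus strand: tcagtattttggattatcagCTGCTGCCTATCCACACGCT
Magi3, exons 2 to 6, chr3:104080137-104105847, minus strand: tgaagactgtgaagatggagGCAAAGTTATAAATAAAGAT
Pkp2, exons 4 to 6, chr16:16230641-16247043, plus strand: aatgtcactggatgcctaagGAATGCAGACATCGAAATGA
Epcam, exons 7 to 8, chr17:87643542-87646340, plus strand: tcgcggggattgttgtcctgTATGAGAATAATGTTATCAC
Magi1, exons 6 to 9, chr6:93755014-93773689, minus strand: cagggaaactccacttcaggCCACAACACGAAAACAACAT
Pard3, exons 18 to 19, chr8:127415570-127426753, plus strand: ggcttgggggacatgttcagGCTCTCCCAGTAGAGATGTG
Ctnnd1, exons 13 to 14, chr2:84610508-84610890, minus strand: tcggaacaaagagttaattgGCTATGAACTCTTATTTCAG
Mllt4, exons 12 to 21, chr17:13832368-13859976, plus strand: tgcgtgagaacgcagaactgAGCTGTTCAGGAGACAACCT

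Junction reads of these genes were scarce in the library labelled ISC and spread over many members in the other. Summed over the members there were 161 reads on 39 circRNAs against 589 reads on 100 circRNAs, or 103 against 772 per 100000 junction reads. The summed ratio was 0.133 (0.111 to 0.159). Reads were found for 14 members in the library labelled ISC and for 25 in the library labelled non-ISC. Of the 27 members with a read, 25 had the smaller share in the library labelled ISC, 13 of them with 0 reads there. Krt18 and Llgl2 were the other 2, each with 1 read against 0, which is within the limit of 3 counts that a count of 0 allows.

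A member with 10 or more reads in all was counted as lower or higher where its ratio differed from 1 by 2-fold or more and its interval excluded 1. By this rule 14 of the 15 members with enough reads were lower in the library labelled ISC and 0 were higher. Of all 2920 host genes with enough reads, 22.7% were lower and 26.7% higher. The median log2 ratio was -4.34 over the 15 members (pseudocount 0.5 read) and 0.16 over the 2920 host genes. The 15 members passed on their summed reads, mostly from the library labelled non-ISC, so this count does not speak for the other 16. A gene with 0 reads labelled ISC that reaches 10 in all is always lower by this rule, which holds for 6 of the 15. The rule compares these libraries, not the cell types. Scaled to whole library totals, back-calculated from the deposited RPM values, every log2 ratio moves up by 1.49. Then 9 of the 15 were lower and 0 higher, and of all host genes 11.1% were lower and 58.8% higher.

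**Figure D1:**
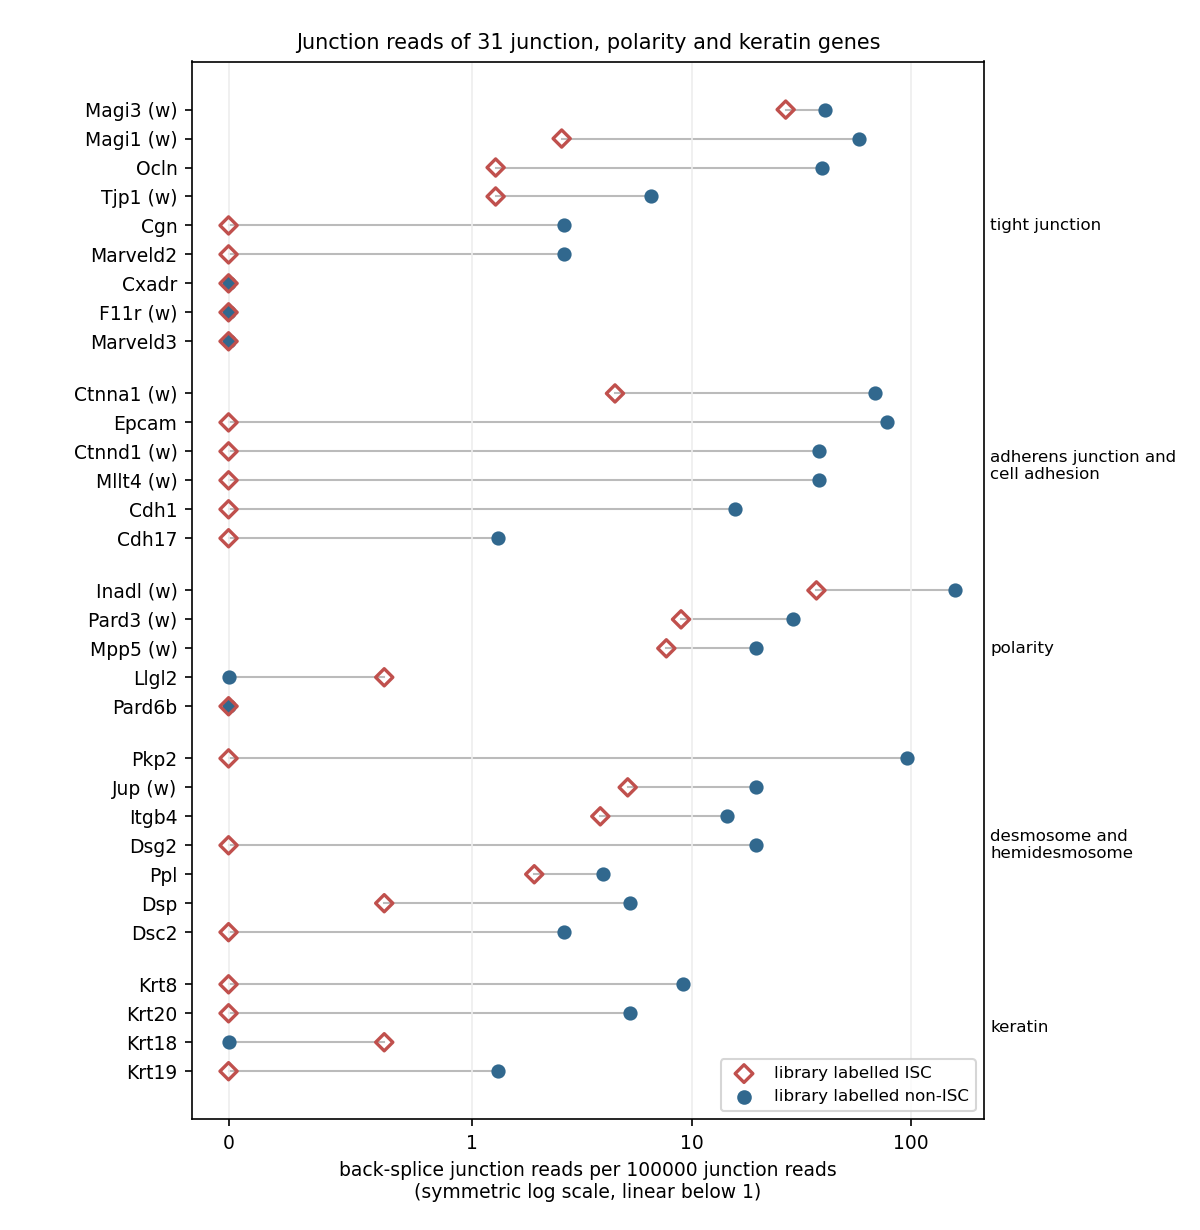
Junction reads per 100000 junction reads of the library (symmetric log axis, linear below 1) for the 31 members, ordered by role, with 1 library per label and (w) for widely expressed members. The diamonds of the library labelled ISC lie left of the filled points for 25 members, right of them for Krt18 and Llgl2, and at 0 for both in Cxadr, F11r, Marveld3 and Pard6b.

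Among the tight junction genes, Magi1 and Ocln were lower in the library labelled ISC, while Magi3 did not pass the rule. Ocln encodes occludin, a membrane protein of the tight junction strands. Its reads numbered 2 against 30, a ratio of 0.0325 (0.00376 to 0.128). Magi1 and Magi3 encode related scaffolds that sit at tight junctions. Magi1 had 4 reads against 44, a ratio of 0.0443 (0.0116 to 0.122). Magi3 had 42 reads against 31, a ratio of 0.660 (0.405 to 1.09). It was the only one of the 15 whose interval included 1. Counting only its circRNAs seen in both libraries gave 0.466 (0.248 to 0.875), which passes, and library totals gave 1.86 (1.14 to 3.06). Tjp1, the gene of ZO-1, had 2 against 5 reads, and Cgn (cingulin) and Marveld2 (tricellulin) had 0 against 2 each. Marveld3 had 1 entry, without junction reads. A further circRNA with 0 against 8 reads lay inside Magi1 but was listed under a FANTOM transcript name, so it was not counted.

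All 5 adherens junction and adhesion genes with enough reads were lower in the library labelled ISC, beside 22.7% of all host genes. Of the 5, 4 had no reads in that library, so their call was fixed once they had enough reads. Epcam, whose product is an adhesion molecule found on nearly all epithelial cells, had 0 reads against 59. Taking a missing entry as 0 reads, its ratio was 0, with an upper limit of 0.0315. Ctnnd1, the gene of p120 catenin, had 0 against 29 reads, and Mllt4, the gene of the actin-binding nectin partner afadin (Afdn in the annotation), also had 0 against 29. Both had an upper limit of 0.0661 for the ratio. Cdh1, the gene of E-cadherin, had 0 against 12 reads, with an upper limit of 0.175 for the ratio. Ctnna1, the gene of alpha-catenin, which links cadherin to actin, kept 7 reads against 52. Its ratio was 0.0656 (0.0251 to 0.145). Cdh17, an intestinal cadherin, had 0 against 1 read.

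The polarity genes kept the most reads in the library labelled ISC. Summed over the 5 members there were 85 against 158 reads, a ratio of 0.262 (0.199 to 0.343). Inadl encodes the Crumbs complex scaffold PATJ and is named Patj in the annotation. There were 58 reads on 11 circRNAs against 121 on 17, a ratio of 0.234 (0.168 to 0.322). Pard3, the gene of the PAR complex scaffold, had 14 against 22 reads, a ratio of 0.310 (0.147 to 0.634). Mpp5, the gene of PALS1, which binds PATJ in the Crumbs complex, had 12 against 15 reads. Its ratio of 0.390 (0.167 to 0.892) turned to 1.10 (0.469 to 2.51) with library totals. With library totals the ratios of Inadl and Pard3 became 0.658 and 0.874, and neither passed the rule any longer. On circRNAs seen in both libraries Pard3 (0.704) and Mpp5 (0.305) did not pass either.

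Of the 7 desmosome and hemidesmosome genes, 4 had enough reads and all 4 were lower in the library labelled ISC, beside 22.7% of all host genes. For Pkp2 and Dsg2, with 0 reads in that library, the call was fixed once they had enough reads. Pkp2, the gene of plakophilin 2, a desmosomal plaque protein, had 0 reads against 73, with an upper limit of 0.0253 for the ratio. Dsg2, a desmosomal cadherin gene, had 0 against 15, with an upper limit of 0.136. Jup, the gene of plakoglobin, had 8 against 15 reads, a ratio of 0.260 (0.0955 to 0.653). Itgb4, the integrin gene of hemidesmosomes, had 6 against 11 reads, a ratio of 0.266 (0.0807 to 0.784). With library totals the ratios of Jup and Itgb4 became 0.732 and 0.749, and neither passed. Dsp (desmoplakin) had 1 against 4 reads, Ppl (periplakin) 3 against 3 and Dsc2 (desmocollin 2) 0 against 2.

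No keratin gene reached 10 reads. Krt8 had 0 reads against 7, Krt20 0 against 4, Krt19 0 against 1 and Krt18 1 against 0. Of the 4, Krt20 alone had its junction on exon ends of an annotated transcript (exons 3 to 7, 704 nt). The Krt8 and Krt18 entries with reads had no end on an exon end. The Krt19 entry with a read ran from 100142052 to 100204980 on chromosome 11. Krt19 lies on the minus strand, so this is past its 5′ end at 100148665. Krt8 and Krt18 have many processed copies in the genome, and the sources used here do not say how reads shared with such copies were assigned.

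**Figure D2:**
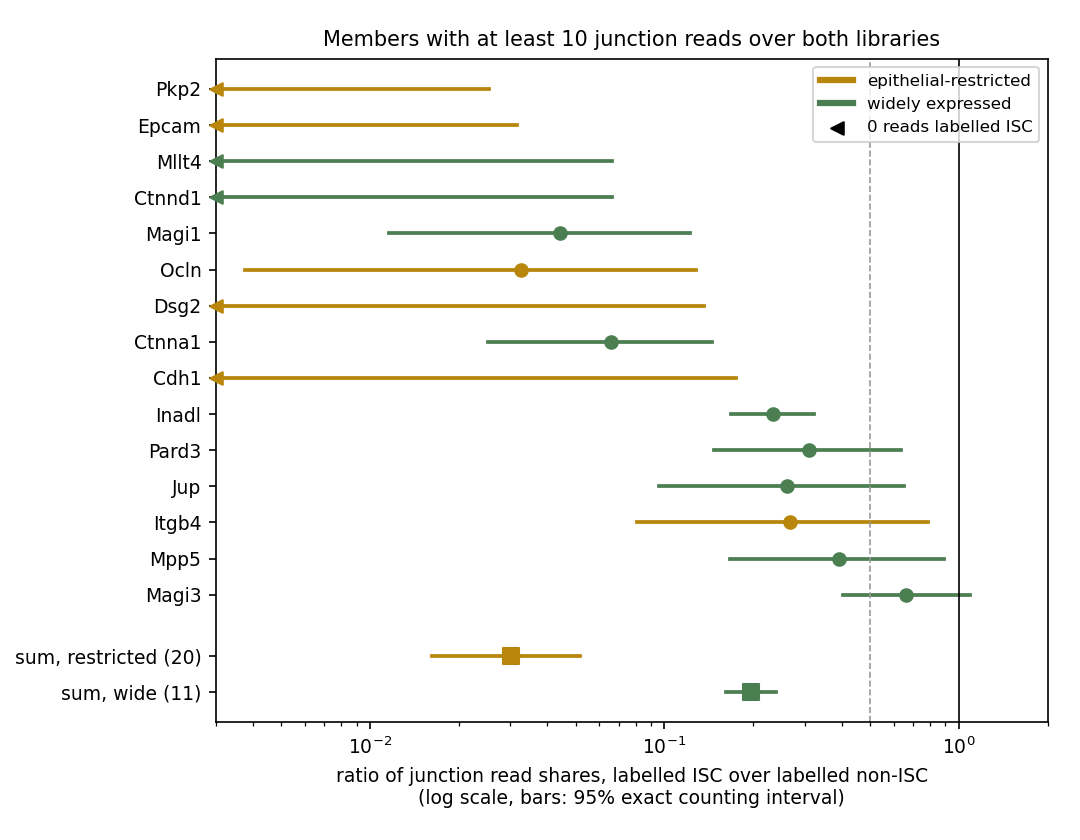
Ratio of junction read shares, labelled ISC over labelled non-ISC, on a log axis for the 15 members with at least 10 reads and for the sums of both classes, with 95% exact counting intervals, a solid line at 1 and a dashed line at a ratio of 0.5. Arrowheads mark the 6 members without reads in the library labelled ISC, and the interval of Magi3 alone crosses 1.

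Members classed here as epithelial-restricted were set against members classed as widely expressed. The placing of Pkp2, Dsg2, Cxadr, Itgb4 and Ppl in the first class is open to question and was varied. The first class held 20 genes, and the second the other 11, namely Magi1, Magi3, Tjp1, Pard3, Jup, F11r, Ctnna1, Ctnnd1, Mpp5, Inadl and Mllt4. The epithelial-restricted members had 14 against 226 reads, a summed ratio of 0.0302 (0.0162 to 0.0517). The widely expressed members had 147 against 363 reads, a summed ratio of 0.197 (0.162 to 0.240). Of all member reads, the restricted class held 8.70% (4.84 to 14.2) in the library labelled ISC and 38.4% (34.4 to 42.4) in the other. The ratio of both ratios, which does not depend on the scaling, was 0.153 (0.0798 to 0.274). All 6 restricted members with enough reads were lower, 4 of them with 0 reads labelled ISC. Of 9 widely expressed members, 8 were lower, 2 of them with 0 reads. Over all host genes with enough reads 22.7% were lower. For members with 0 reads labelled ISC the call was fixed once they had enough reads, so these counts do not compare the classes.

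The class difference rested on where a few scaffold genes were placed. With Magi1, Magi3, Inadl, F11r and Jup counted as epithelial-restricted, the ratio of ratios turned to 1.25 (0.814 to 1.96). Restricted to circRNAs seen in both libraries it was 0.415 (0.0429 to 2.06), from 1 circRNA of the restricted class. The widely expressed class was itself uneven. Ctnnd1, Mllt4, Magi1 and Ctnna1 had ratios of at most 0.0656, while Inadl, Jup, Pard3, Mpp5 and Magi3 had ratios from 0.234 to 0.660. Without Inadl and Magi3 the class had 47 against 211 reads, a ratio of 0.109 (0.0774 to 0.150). Without Epcam and Pkp2 the restricted class had 14 against 94 reads, a ratio of 0.0726 (0.0382 to 0.128), whose interval overlaps it. Without Pkp2 and Inadl, the leading member of each class, the ratio of ratios was 0.249 (0.126 to 0.460). The genes of the restricted class were shorter, with a median length of 30327 nt against 145612 nt and a median of 11.5 against 22 exons. The part of gene length in the class difference was not tested.

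Most member circRNAs were ordinary exon circles. Of the 124 with a read, 96 had both ends on exon ends of 1 annotated transcript, and these held 92.8% of the member reads, against 88.1% over all circRNAs. They enclosed a median of 4 exons and 604 nt (range 147 to 2547), beside 3 exons and 474 nt over all exonic circRNAs. For 17 of the 96 (17.7%) the circle began at exon 2, beside 26.6% over all. Circles wholly inside the coding region numbered 85, and 37 of them (43.5%) had a length that is a multiple of 3, beside 39.2% over all. A further 18 circRNAs, with 40 reads, had no end on an exon end.

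Of the 124 member circRNAs, 15 (12.1%) had reads in both libraries, near the 16.7% over all circRNAs. They were 14 of 84 circRNAs of widely expressed members and 1 of 40 of the restricted ones, an Ocln circle of exons 5 to 6 with 2 against 9 reads. The library labelled non-ISC alone had 85, with up to 50 reads each, and the library labelled ISC alone had 24, with up to 8. Of the 18 member circRNAs with 10 or more reads in all, 13 were lower in the library labelled ISC, 0 were higher and 5 did not pass. Only 11 of the 18 (61.1%) had reads in both libraries, beside 69.5% over all circRNAs with enough reads. The rest of the 18 had 0 reads labelled ISC, so their call was fixed once they had enough reads. Of all 3659 circRNAs with enough reads 23.0% were lower and 32.4% higher. A circRNA without an entry was counted as 0.

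Inadl made the widest set of circles, of which 4 had reads in both libraries. Its leading circle, exons 15 to 17 (429 nt), had 24 reads against 55, a ratio of 0.213 (0.126 to 0.349). Of the Inadl reads it held 41.4% (28.6 to 55.1) in the library labelled ISC and 45.5% (36.4 to 54.8) in the other. The circle of exons 16 to 17 (294 nt), which ends at the same splice donor, had 14 against 9 reads. Its share of the gene's reads was 24.1% (13.9 to 37.2) and 7.44% (3.46 to 13.7), with intervals that all but meet. No allowance was made for choosing this circle among those of Inadl, and the intervals may be too narrow. By itself it had a ratio of 0.758 (0.306 to 1.99) and did not pass. The circle of exons 15 to 25 had 2 against 12 reads and that of exons 18 to 20 had 7 against 13. Near the 3′ end of the gene, the circle of exons 36 to 43 had 0 against 7 reads and that of exons 36 to 42 had 0 against 3. A circRNA with 1 end on an exon end, which spans the same exons, had 1 against 0.

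The exon circles of Magi3 with more than 1 read all lay within exons 2 to 6 of 22. Exons 2 to 6 (705 nt) gave 13 reads against 9 and exons 4 to 6 (468 nt) gave 8 against 10, and neither passed the rule. Exons 2 to 5 gave 8 against 0 and exons 4 to 5 gave 6 against 0, so circles ending at exon 5 had reads in the library labelled ISC alone. With fewer than 10 reads each, these were not counted as higher. Of circRNAs with no end on an exon end, 1 had 0 against 6 reads and another 4 against 0.

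Pkp2 had 2 circles with reads, and both contained exon 4. Exons 4 to 6 (522 nt) gave 39 reads and exons 2 to 4 (821 nt) gave 34, each against 0. Epcam reads were concentrated on exons 7 to 8, with 50 of 59 reads (84.7%, 73.0 to 92.8). The other Epcam circles had at most 3 reads. Ocln had 0 against 18 reads on exons 2 to 4 (952 nt). Magi1 had 29 reads on exons 6 to 9 (344 nt), Ctnnd1 24 on exons 13 to 14 (279 nt) and Mllt4 13 on exons 12 to 21 (1411 nt), all against 0. Ctnna1 had 3 against 41 reads on exons 2 to 3 (303 nt).

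**Figure D3:**
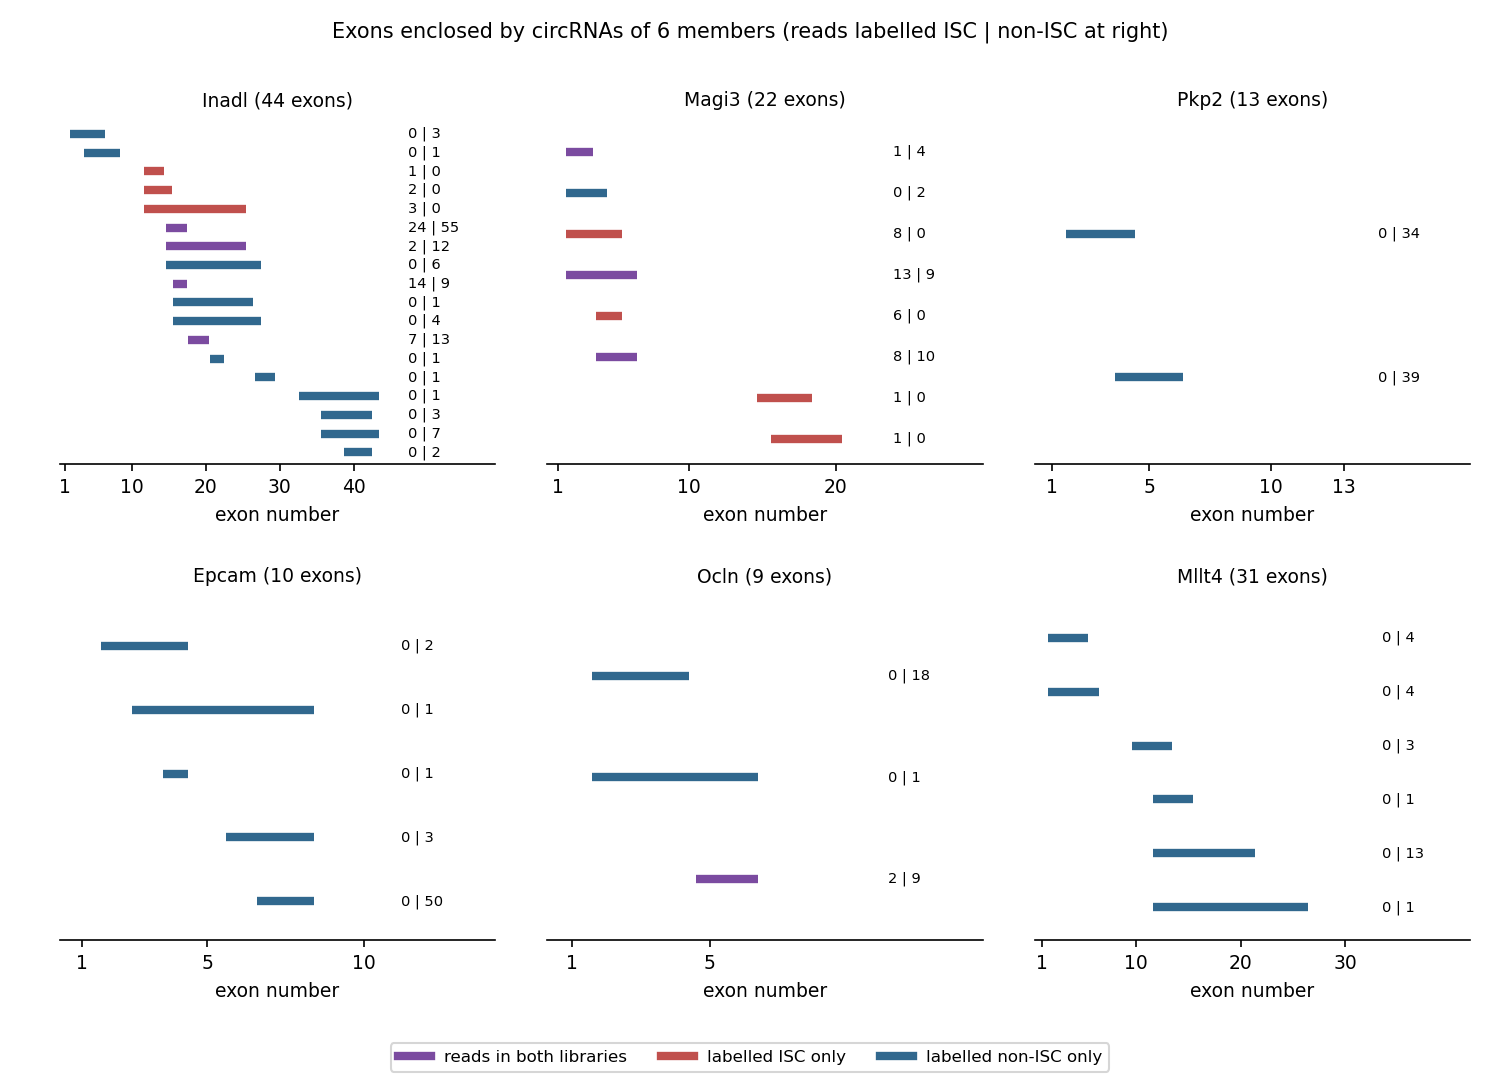
Exons enclosed by the exon circles with a read on 1 transcript per gene (horizontal bars, exon numbers on the x axis) for 6 members, with junction reads labelled ISC and non-ISC at the right and 1 library each. Circles of Inadl and Mllt4 placed on another transcript, with at most 2 reads each, are not drawn. Bars of Pkp2, Epcam and Mllt4 carry reads labelled non-ISC alone, while Inadl and Magi3 have circles in both libraries, among them exons 15 to 17 of Inadl with 24 and 55 reads.

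In 7 members both libraries had at least 5 reads, and in 3 of these, Inadl, Pard3 and Ctnna1, the same circRNA led in both. The Pard3 circle of exons 18 to 19 (460 nt) had 13 of the gene's 14 reads labelled ISC (92.9%, 66.1 to 99.8) and 9 of its 22 labelled non-ISC (40.9%, 20.7 to 63.6). By itself it had a ratio of 0.704 (0.278 to 1.87) and did not pass. In Itgb4 the libraries shared no circle, with exons 32 to 33 at 6 against 0 reads and exons 9 to 13 at 0 against 9. In Mpp5 exons 7 to 9 had 5 against 8 reads, and exons 2 to 3 had 6 against 0. In Jup exons 7 to 8 had 5 against 3 reads, and exons 3 to 4 had 3 against 8.

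Scaled to junction totals, other genes of the same structures, from lists that left out the members, were also mostly lower in the library labelled ISC. Calls for these lists were made with that scaling alone. Of all host genes with enough reads, 22.7% were lower and 26.7% higher. Of 43 further tight and adherens junction gene symbols, 7 had enough reads, of which 6 were lower and 1 higher. For those with 0 reads labelled ISC, such as Igsf5, the call was fixed once they had enough reads. Some Pvrl genes are in this list under their Nectin names as well, which had no entry. Igsf5, a tight junction immunoglobulin protein gene, had 0 against 100 reads and Ctnnb1 (beta-catenin) had 42 against 57. The higher one, named after its value was seen, was Amotl1 at 16 against 1. The summed ratio of this list was 0.139 (0.106 to 0.180). Of 19 further desmosome and hemidesmosome genes, 3 had enough reads and 2 were lower. Evpl (envoplakin) had 55 against 101 reads.

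Polarity genes outside the members were less one-sided than the junction list. Of 11 with enough reads, 5 were lower, 1 higher and 5 did not pass, beside 22.7% lower and 26.7% higher over all host genes. The summed ratio of the polarity list was 0.694 (0.604 to 0.797). With library totals every log2 ratio moves up by 1.49, which takes this sum above 1, so its direction depends on the scaling. Dlg5 had 4 against 50 reads, Myo5b, the motor of apical recycling endosomes, 2 against 87, and Dlg1 29 against 32. Mark3, a polarity kinase gene, was higher at 227 against 54, a ratio of 2.05 (1.52 to 2.81). Cdc42 (131 against 52), Rab11a (61 against 17) and Tiam1 (25 against 12) did not pass. The 10 further keratin and keratin-associated genes had 2 against 2 reads in all.

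**Figure D4:**
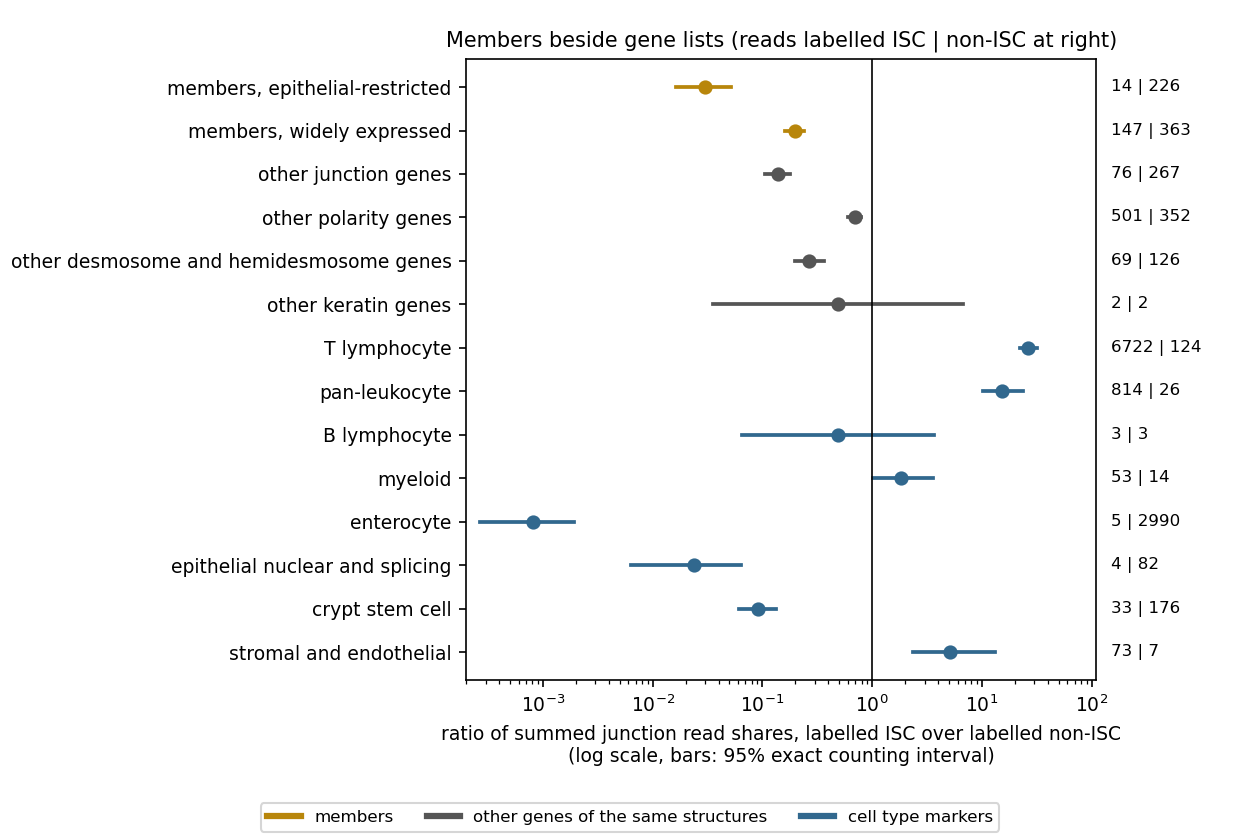
Summed ratio of junction read shares, labelled ISC over labelled non-ISC, on a log axis with 95% exact counting intervals for the members, for other genes of the same structures and for cell type markers, with summed reads at the right. The restricted members (14 and 226 reads) lie at 0.0302, left of the widely expressed members at 0.197, and the T lymphocyte and pan-leukocyte lists lie right of 1.

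Markers of other cell types moved between the same libraries as the members. Over all host genes with enough reads, 26.7% were higher labelled ISC and 22.7% were lower. A gene with enough reads and 0 in 1 library has a fixed call, as Cd3g, Cd247, Rag1, Sis and Slc5a1 do, among others. In the T lymphocyte list, 12 of 12 genes with enough reads were higher labelled ISC than labelled non-ISC, and the summed level was 4293 against 162 per 100000 junction reads. Satb1 gave 4292 of the 6722 reads labelled ISC, and Bcl11b 107 of the 124 labelled non-ISC. Cd3g (11 against 0), Cd247 (14 against 0) and Rag1 (22 against 0) were at 0 in the library labelled non-ISC. Cd3d, Cd3e and Cd8a were at 0 in both. In the pan-leukocyte list 6 of 7 were higher, at 520 against 34.1 per 100000, and Ptprc (CD45) had 58 against 0. In the enterocyte list 8 of 8 were lower, at 3.19 against 3917 per 100000, of which Btnl1 gave 2421 of the 2990 reads. Vil1 (0 against 5), Sis (0 against 28) and Slc5a1 (0 against 56) had no reads in the library labelled ISC, and Fabp1 and Fabp2 had none in either. In the epithelial nuclear and splicing list both genes with enough reads were lower, Esrp1 at 4 against 57 and Grhl2 at 0 against 17. Of the crypt stem cell list 4 of 5 were lower, at 21.1 against 231 per 100000. The B lymphocyte (3 against 3 reads) and myeloid (53 against 14) lists had no gene that passed, and of the stromal and endothelial list Pecam1 was higher at 67 against 7. The part of these cells in the members' ratios was not tested.

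The lists also give, for each entry, a read count that is often far larger than its junction reads, and this differed most for the keratins. In the library labelled non-ISC the 12 keratin entries had a count of 24538 with 12 junction reads, while the other member entries had a count of 8021 with 577. Krt8 had a count of 11344 on 7 junction reads, and Krt19 11626 on 1. In contrast, all 12 member entries with at least 10 junction reads in that library had a count equal to their junction reads, as had all 4 in the library labelled ISC. Over all circRNAs with at least 10 junction reads this held for 72.6% in the library labelled non-ISC and 66.2% in the library labelled ISC. The sources used here do not say how the count was assigned, so whether it holds reads of linear mRNA is not known. On this count, scaled to library totals, the summed ratio was 0.0143 (0.0128 to 0.0161) for the restricted and 0.335 (0.309 to 0.362) for the widely expressed members. This scaling was chosen after seeing the data. The planned scaling, to count totals, gave 0.00312 and 0.0728. Keratins, all in the restricted class, held 24538 of the members' count of 32559 labelled non-ISC, so the restricted values are mostly keratin values.

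**Figure D5:**
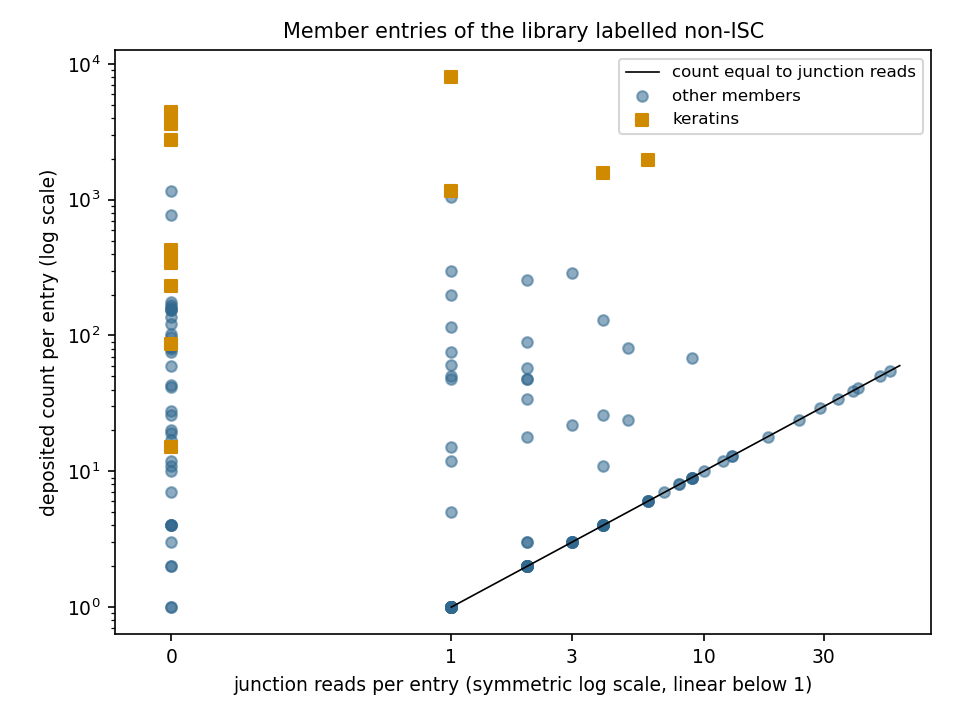
Deposited count (log axis) against junction reads (symmetric log axis, linear below 1) for the 146 member entries of the library labelled non-ISC, with 1 point per entry. The 12 entries with at least 10 junction reads lie on the line of equality, and the 12 keratin entries (squares) lie above it, 8 of them at 0 junction reads.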

How the data were processed

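Libraries of total RNA from sorted cells were depleted of rRNA, digested with RNase R to remove linear RNA, and sequenced, per the labels' protocols. Trimmomatic 0.36, FastQC and mm9 are named in the submitters' processing notes. For the aligner and circRNA caller, the sources used here give no name. The authors deposited a count, an RPM value (count per 1000000 reads of a library total) and a junction count per circRNA, per the file headers. The junction count was used. Junction ends lay on GENCODE M21 (GRCm38) exon starts and ends for 76.5% to 79.6% of entries and for at most 0.344% when shifted by 1 nt, so coordinates are given as GRCm38, counted from 1.

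Reads were summed per host gene. Ratios were scaled to total junction reads, 156582 and 76331, so that 3 counts come to 1.92 and 3.93 per 100000. CircRNAs naming no host gene (0.725% and 1.48% of junction reads) stayed in these totals but out of host gene tests. Both mates of a pair may cross a junction, so intervals may be too narrow. Python 3.11.15 and scipy 1.17.1 were used, and the ratio rule was tested on simulated data. Junction reads do not scale with gene length, so levels of different genes are not ranked. Members, classes and lists were chosen with earlier results of these data known. Named are all members, their leading circRNAs and list genes with at least 30 reads, of which 1 is not reported here.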

Additional observations from a re-analysis of the deposited data

Results flagged for a closer look

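The deposited count showed a signal on entries that the junction reads do not use. In the library labelled non-ISC, 46 of the 146 member entries (31.5%) had no junction read, and these held a count of 16202 of the members' 32559, or 49.8%. Over all circRNAs of that library such entries were 33.4% and held 59.9% of the count, both above the members' shares. The library labelled ISC listed none. Krt8 had a count of 8220 on 6 such entries, Krt19 3606 on 2, Epcam 1313 on 2 and Jup 771 on 1. For Llgl2 (153 on 1 entry) and Marveld3 (7 on 1) they were the whole count in that library.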

How the results depend on the processing

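No paired analysis was possible because each label has 1 library, and for the same reason none could be left out. Both class ratios stayed below 1 with intervals excluding 1 under all 11 alternatives, at 0.00312 to 0.141 for the restricted and 0.0728 to 0.556 for the widely expressed members. The ratio of ratios ranged from 0.0428 to 1.25 over 7 alternatives. It turned to 1.25 with Magi1, Magi3, Inadl, F11r and Jup counted as restricted, and its interval included 1 at 0.415 over circRNAs seen in both.

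The number of lower members, 14 of 15, became 9 with library totals and 5 of 7 over circRNAs seen in both libraries. It became 9 of 12 with junction reads halved and 26 of 27 on the deposited count. The halving was done per circRNA and rounded up, so single reads were kept and sparse circRNAs were not thinned. The median-ratio scaling left 13, without Mpp5. The number of higher members, 0, became 1 (Krt18) on the count, and 2 (Krt18 and Mpp5) on the count scaled to library totals, an alternative chosen after seeing the data. With library totals Magi3 turned to 1.86 and Mpp5 to 1.10. Of the 15 members, 7 had no circRNA with reads in both libraries, so no value could be given for them there. Depth limits the 16 members under 10 reads, keratins included.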
